A study of Mus musculus with 15 samples.

Results

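MiR-375 and the miR-7 family are miRNAs known for their enrichment in the endocrine cells of the pancreatic islet, and they were followed here in a glucagon-producing and an insulin-producing mouse cell line. They comprise the assays whose names, once the assay number and the mmu- or rno- prefix are removed, read miR-375, miR-7a or miR-7b with any arm suffix, which gave 5 of 584 miRNA assays. Card A of the TaqMan low density array pair holds mmu-miR-375, mmu-miR-7a and mmu-miR-7b, and card B holds mmu-miR-7a* and rno-miR-7a*. In these names the asterisk marks the strand of a hairpin regarded as less abundant, and rno marks the rat sequence. There were 15 samples, 3 of each of 5 conditions: untreated αTC1-6 and βTC1 at 24 h, αTC1-6 treated with a cytokine mixture for 24 h, and untreated and treated αTC1-6 at 48 h. The mixture held IL-1β at 50, IFN-γ at 1000 and TNF-α at 1000 IU/ml. αTC1-6 derives from a mouse glucagonoma and βTC1 from a mouse insulinoma, and the methods describe the samples of a condition as independent biological replicates. Each line is a single tumour line, so the comparison of lines sets 1 line against 1 line. The arrays measure no hormone mRNA, so the identity of the lines could not be checked on their hormones.

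MiRNAs are short RNAs that guide Argonaute proteins to mRNAs by pairing of their seed, bases 2 to 8 counted from the 5′ end, and lower the output of those mRNAs. MiR-375 is known as an islet miRNA that restrains insulin secretion, and mice lacking it have altered α and β cell mass. MiR-7 is known in neuroendocrine cells and in the developing and adult islet, where Pax6 and components of mTOR signalling are among its described targets.

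The mature sequences of the miR-7 family, from the RefSeq miRNA table of GRCm38.p6, are shown because they set what the 4 miR-7 assays can tell apart. Capitals mark the seed.

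mmu-miR-7a-5p: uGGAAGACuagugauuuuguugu

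mmu-miR-7b-5p: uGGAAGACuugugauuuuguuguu

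mmu-miR-7a-1-3p: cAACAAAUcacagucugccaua

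mmu-miR-7a-2-3p: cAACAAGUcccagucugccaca

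mmu-miR-7b-3p: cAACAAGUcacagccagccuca

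MiR-7a-5p and miR-7b-5p share the seed GGAAGAC, which no other of the 1679 mature names of the table carries. They differ by A10U, counted from 1 at the 5′ end of miR-7a-5p, and by 1 additional base at the 3′ end of miR-7b-5p. The 2 miR-7a 3p strands differ at 3 positions, one of them inside the seed (A7G). Which of them the miR-7a* assays detect is not given in the sources used here. MiR-7a-5p is made from 2 hairpins, Mir7-1 at chr13:58392779-58392886 on the minus strand, within the span of Hnrnpk, and Mir7-2 at chr7:78888277-78888373 on the plus strand, which overlaps no other gene of the annotation. An assay for miR-7a therefore does not tell these genes apart. Mir7b lies at chr17:56242988-56243098 on the plus strand, and Mir375 at chr1:74900658-74900721 on the minus strand between Cryba2 and Cfap65. Neither overlaps another annotated gene.

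The readout of a well is its threshold cycle (Ct), the number of PCR cycles needed for the fluorescence to pass a fixed threshold, so more miRNA gives a lower Ct. The deposited ΔCt subtracts from it the Ct that miR-26a had in that sample, which gives a log2 scale on which more negative means more miRNA. From 214 to 337 miRNAs of card A and from 174 to 191 of card B had a Ct in a sample. MiR-26a itself had Ct values from 17.0 to 19.0. It was measured on card A, so the ΔCt of the card B assays, mmu-miR-7a* and rno-miR-7a*, takes its reference from the other card. All card A counts of 304 or more came from the 48 h samples, in which the plant control assay ath-miR159a on card A also gave a Ct, from 16.3 to 33.0, in all 3 untreated and all 3 treated samples. In the normalized table that control had no Ct on card A in any sample of 24 h. The deposited tables differ in this by time. Of the card A miRNA wells with a Ct in the non-normalized table, 631 of 2950 (21.4%) at 24 h but 1 of 1954 at 48 h are given as undetermined in the normalized one. The non-normalized table holds a Ct for 308 to 348 card A miRNAs per sample at 24 h and for at least 316 at 48 h, and there the plant control had a Ct in 5 of the 9 samples of 24 h. Of the 75 wells of miR-375 and the miR-7 family, 73 had a Ct. The other 2 were blank in the normalized table, miR-7a in replicate 1 of the treated cells of 24 h and miR-7b in replicate 1 of the untreated αTC1-6 of 24 h.

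MiR-375 had the lowest mean Ct of card A in both lines, among miRNAs with no undetermined well in the untreated samples of 24 h of a line. In untreated αTC1-6 of 24 h its Ct was 14.9 ± 0.0448 (SD, n = 3), followed by miR-29a at 16.5 ± 0.509. In βTC1 its Ct was 14.0 ± 0.582 (SD, n = 3), followed by miR-30c at 15.4 ± 0.500. By mean Ct it took place 1 of 234 miRNAs in αTC1-6 and place 1 of 249 in βTC1. A place required no undetermined well and a value in at least 2 of the 3 samples, so miRNAs with a Ct in some samples only are left out. Sample by sample, it ranked 1, 1 and 2 in untreated αTC1-6 of 24 h, 1 in all 3 treated samples of 24 h, and 2, 1 and 2 in βTC1. At 48 h it ranked 6, 1 and 7 in the untreated and 4, 4 and 8 in the treated αTC1-6. The leading rank at 24 h depended on the table. In the non-normalized table miR-375 ranked 6, 5 and 7 in untreated and 5, 2 and 5 in treated αTC1-6 of 24 h, and 6, 1 and 5 in βTC1. Of the 33 wells ahead of it there in samples of 24 h, 31 are undetermined in the normalized table, against 1 of 26 at 48 h. A rank orders Ct values and not molecules, since assays differ in efficiency.

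In the normalized table the wells that ranked ahead of miR-375 were mostly isolated readings. There were 27 such wells from 22 assays, 24 of them in samples of 48 h, and no assay was ahead in more than 2 samples. Their Ct lay between 3.54 and 15.2, and the median Ct of the same assay over its other samples lay between 23.5 and 40, the value given to a well without a Ct. In 23 of the wells the Ct was under 12. With wells under a Ct of 12 left out, a setting chosen after seeing the data, miR-375 ranked 1 in every sample of 24 h, in βTC1 and in the untreated cells of 48 h, and 2, 2 and 3 in the treated cells of 48 h. Among the 151 miRNAs of card A with a Ct in all 15 samples, also chosen after seeing the data, it ranked 1 in all samples but 2. The exceptions were replicate 1 of βTC1, behind miR-496, and replicate 3 of the treated cells of 48 h, behind miR-320, each of which ranked ahead in that sample alone.

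**Figure D1:**
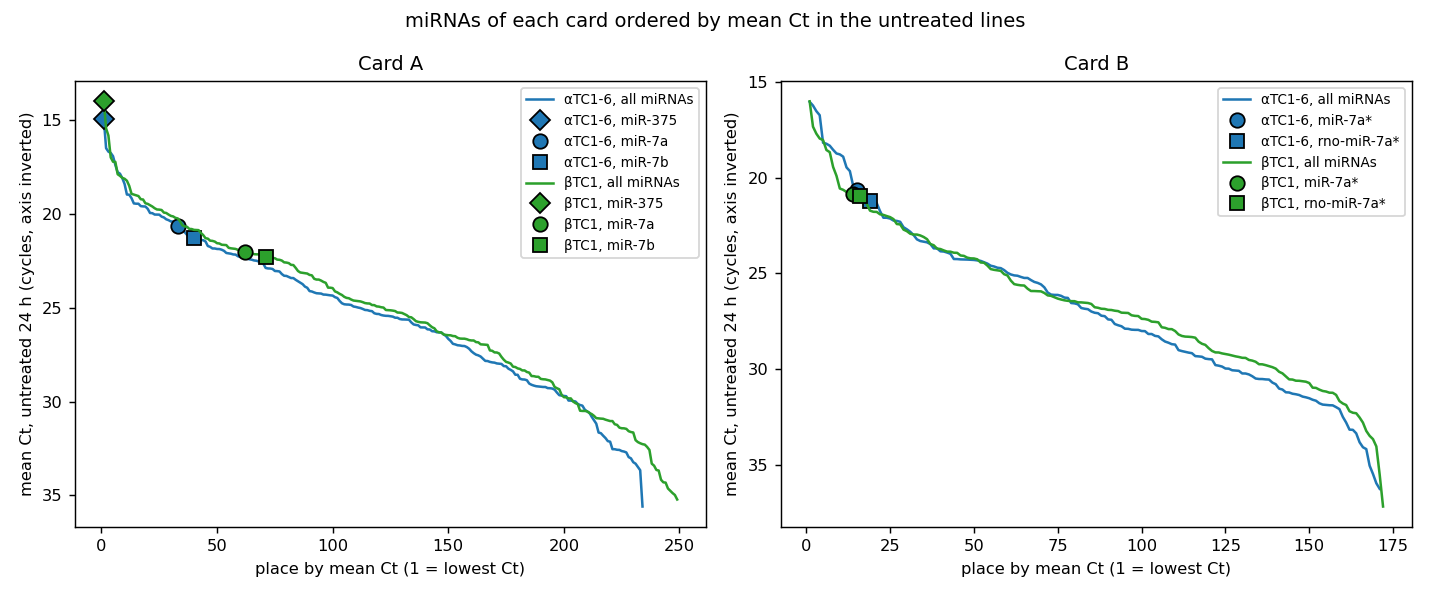
Mean Ct (cycles, axis inverted, so more abundant miRNAs are higher) in the untreated αTC1-6 (blue) and βTC1 (green) of 24 h. MiRNAs with no undetermined well in the samples of a line are ordered by mean Ct on card A (left) and card B (right). Symbols mark the miR-375 and miR-7 assays. MiR-375 is at place 1 in both lines, miR-7a at place 33 in αTC1-6 and 62 in βTC1, and miR-7b at place 40 and 71.

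The miR-7 strands stood in the upper part of each card without leading it. MiR-7a, the 5p strand shared by Mir7-1 and Mir7-2, ranked between 30 and 50 in the 11 αTC1-6 samples with a value, and 43, 84 and 71 in βTC1. MiR-7b ranked between 33 and 72 in αTC1-6 and 51, 63 and 91 in βTC1. For both, the ranges of the lines overlapped. On card B, mmu-miR-7a* ranked between 12 and 20 in αTC1-6 and between 12 and 25 in βTC1, and rno-miR-7a* between 13 and 22 and between 15 and 26. At 24 h in untreated cells mmu-miR-7a* was at place 15 of 171 in αTC1-6 and 14 of 172 in βTC1, and rno-miR-7a* at 19 and 16. The neighbours of mmu-miR-7a* in βTC1 by mean Ct were miR-15b* at 20.8 and miR-93* at 20.9. In αTC1-6 they were rno-miR-25* at 20.4 ± 6.02 and miR-681 at 20.7 ± 13.5 (SD), so these places rest partly on widely spread wells. With wells under a Ct of 12 left out, mmu-miR-7a* ranked 14, 14 and 16 in untreated αTC1-6 of 24 h. In βTC1 it then ranked 20, 17 and 12. Ranks of card A and card B cannot be set against each other, because each card holds its own set of assays.

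Relative to miR-26a, miR-375 stood at a higher level in βTC1 than in αTC1-6 in all samples at steady state, but the difference did not pass the test. Its ΔCt was -4.04, -2.65 and -2.83 in replicates 1 to 3 of untreated αTC1-6 of 24 h. In βTC1 it was -4.44, -4.16 and -4.12. On this scale the 3 βTC1 samples had more miR-375 than each of the αTC1-6 samples, and the groups did not overlap. At steady state, that is untreated cells of 24 h, 45.4% of the assays tested had groups that did not overlap. The log2 difference of αTC1-6 minus βTC1 was -1.06 ± 0.522 (SE, 95% confidence interval -2.37 to 0.24, limma adjusted p = 0.164). The exact permutation test gave p = 0.1, the smallest value that 3 against 3 samples allow. The median log2 difference of all 480 assays tested was -0.56 (-0.62 on card A), and with each card centred on its median the value for miR-375 was -0.49 (limma adjusted p = 0.354). Centred this way, the groups overlapped. The Ct minus the card median of replicate 2 of βTC1, at -10.08, fell within the range of -10.57 to -9.82 of untreated αTC1-6 of 24 h.

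Before normalization miR-375 varied little among the untreated αTC1-6 of 24 h. Its Ct was 14.94, 14.90 and 14.85 in these samples, while the Ct of miR-26a was 18.1 ± 0.792 (SD, n = 3). In βTC1 the Ct of miR-375 was 13.94, 14.58 and 13.42, lower than in all untreated αTC1-6 of 24 h, as in 28.1% of the 480 assays tested. On the Ct scale without normalization the log2 difference was -0.92 (limma adjusted p = 0.115).

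MiR-7a differed in the opposite direction, with more in αTC1-6, and did not pass either. Its ΔCt was 1.94, 2.43 and 3.27 in untreated αTC1-6 of 24 h and 2.58, 4.23 and 4.56 in βTC1. Replicate 1 of βTC1 lay within the αTC1-6 values and the other 2 above them. The log2 difference was 1.24 ± 0.715 (SE, 95% confidence interval -0.55 to 3.04, limma adjusted p = 0.228). For miR-7b the ΔCt was 3.46 and 3.85 in the 2 samples of αTC1-6 with a value and 3.20, 3.56 and 5.42 in βTC1, so that replicate 3 of βTC1 stood apart as the lowest level. Its log2 difference of 0.40 had the widest interval of the 5 assays, from -1.88 to 2.69 (limma adjusted p = 0.752). It depended on the reference, at 1.204 centred on the card median, 1.005 without normalization and 0.018 with U6 and small nucleolar RNAs. It was 0.82 in the non-normalized table, which fills the blank well, and -0.27 without replicate 3 of βTC1.

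The 2 passenger-strand assays gave small differences between the lines. For mmu-miR-7a* the ΔCt was 1.95, 3.15 and 2.67 in αTC1-6 and 2.59, 2.24 and 3.12 in βTC1, with a log2 difference of 0.06 (95% confidence interval -1.22 to 1.35, limma adjusted p = 0.941). For rno-miR-7a* it was 2.92, 3.22 and 3.27 in αTC1-6 and 2.59, 2.23 and 3.36 in βTC1, with a log2 difference of -0.41 (95% confidence interval -1.58 to 0.76, limma adjusted p = 0.677). The values of the lines overlapped for both. At steady state 0 of the 5 assays passed the limma test at an adjusted p of 0.05, and 0 at an unadjusted p of 0.05. Of the 480 assays tested, 29.2% passed the adjusted and 37.5% the unadjusted threshold. The intervals leave room for differences of more than 1 log2 unit in at least one direction for all 5 assays, so the missing calls do not show that the lines had like levels.

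**Figure D2:**
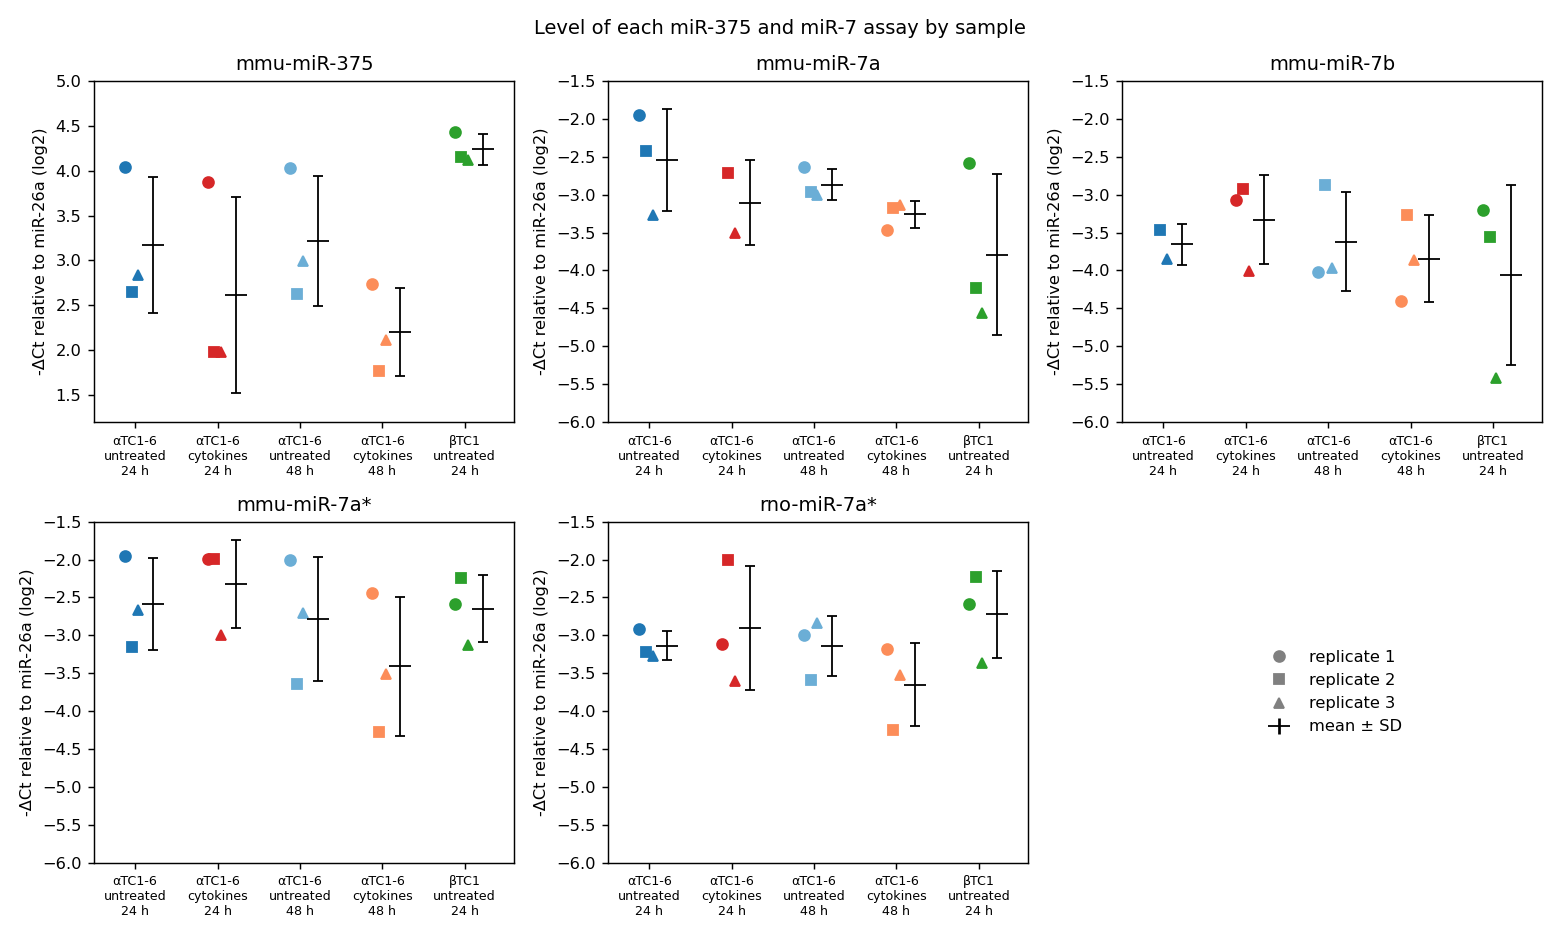
Level of each assay by sample, given as the negative of ΔCt relative to miR-26a (log2 scale, higher means more), in the 5 conditions. Symbols are replicates, and the black line and bars are the mean ± SD over 3 samples (2 for miR-7a in treated cells of 24 h and miR-7b in untreated αTC1-6 of 24 h). The 3 βTC1 samples of miR-375 lie above all 12 αTC1-6 samples, whereas all neighbouring conditions overlap for the other assays. The share of all assays with such a separation on this scale was not counted.

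The ratio of miR-7a to miR-375 within a sample does not depend on the reference, since both assays share a card. The Ct of miR-7a minus that of miR-375 was between 4.69 and 6.67 cycles in the 11 αTC1-6 samples with both values, over all treatments and times, with a median of 5.60. In βTC1 it was between 7.02 and 8.68 cycles. Every βTC1 sample thus had a larger gap than every αTC1-6 sample. The mean gap was 5.72 ± 0.562 cycles in untreated αTC1-6 of 24 h and 8.03 ± 0.889 in βTC1 (SD, n = 3 each), a difference of 2.31 cycles. This is a description with no test. Of the other miRNAs of card A with a Ct in these 6 samples, 39.6% also had a Ct minus that of miR-375 that was higher in all βTC1 than in all αTC1-6 samples of 24 h, and 17.6% had a lower one.

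MiR-7b gave a similar gap with more spread. Its Ct minus that of miR-375 was between 4.91 and 8.05 cycles in αTC1-6 and between 7.64 and 9.54 in βTC1, so the lines overlapped. MiR-7b and miR-7a, which differ by the single substitution A10U and 1 end base, stayed close to each other. The Ct of miR-7b exceeded that of miR-7a by a median of 0.652 cycles in αTC1-6 (range -0.10 to 1.38, n = 10) and of 0.619 in βTC1 (range -0.67 to 0.85, n = 3). The 2 miR-7a* assays of card B differed by a median of 0.367 cycles in αTC1-6 (range -0.05 to 1.12, n = 12) and of 0.0024 in βTC1 (range -0.02 to 0.24, n = 3), with the rat assay at the higher Ct in the αTC1-6 median.

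**Figure D3:**
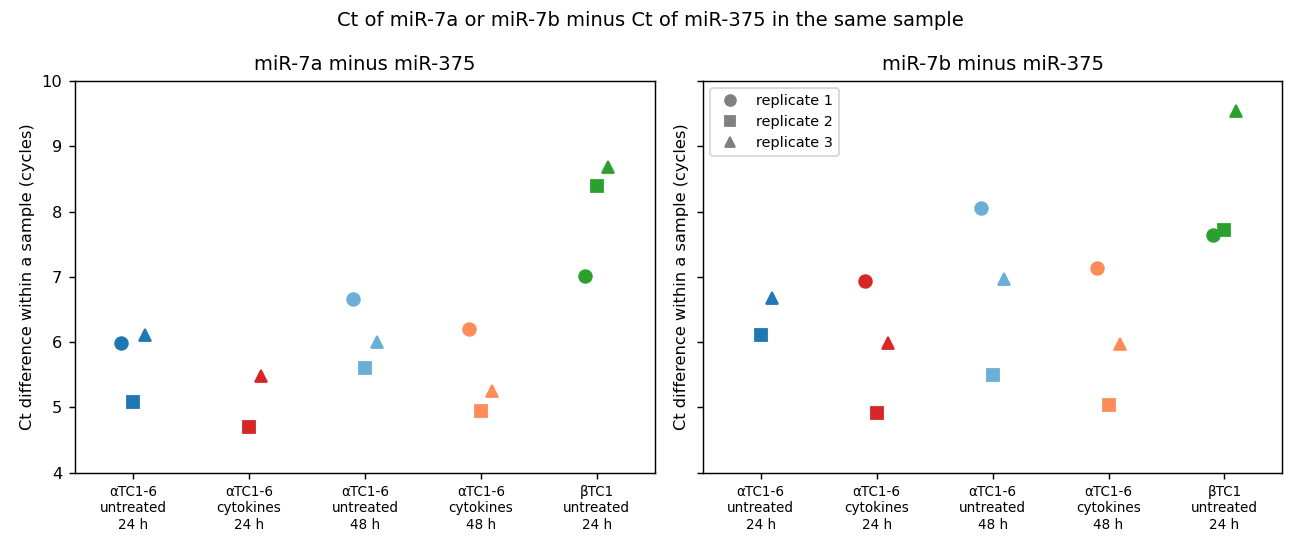
Ct of miR-7a (left) or miR-7b (right) minus Ct of miR-375 in the same sample, in cycles, for each condition, with symbols for replicates. For miR-7a the βTC1 samples, from 7.02 to 8.68, lie above all αTC1-6 samples, from 4.69 to 6.67, and for miR-7b the lines overlap.

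Cytokine treatment addressed how the α-cell line responds to inflammatory signals. MiR-375 was lower in the treated than in the untreated sample of the same replicate number in all 3 pairs at 24 h and in all 3 at 48 h, yet neither difference passed the test. At 24 h the ΔCt of treated cells was -3.88, -1.98 and -1.98, against -4.04, -2.65 and -2.83 in untreated cells. Replicate 1 of both groups had more miR-375 than replicates 2 and 3, and the groups overlapped. The log2 difference was -0.56 ± 0.719 (SE, 95% confidence interval -2.37 to 1.25, limma adjusted p = 0.959). Leaving out 1 replicate at a time gave from -1.19, without treated replicate 1, to -0.13, without untreated replicate 1. With the replicate number as a block the difference was -0.56 ± 0.226 (SE, 95% confidence interval -1.28 to 0.16, limma adjusted p = 0.459). Of the assays with all 6 values at 24 h, over both cards together, 24.3% were lower in all 3 pairs. The median log2 difference at 24 h was -0.27 over the 254 assays tested on card A and 0.20 over the 191 on card B.

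At 48 h the ΔCt of miR-375 was -2.74, -1.76 and -2.12 in treated and -4.03, -2.63 and -2.99 in untreated cells. Only replicate 1 of the treated cells reached the range of the untreated ones. The log2 difference was -1.01 ± 0.513 (SE, 95% confidence interval -2.33 to 0.30, limma adjusted p = 0.671), and from -1.31 to -0.605 when 1 replicate was left out, the smallest without untreated replicate 1. With the replicate number as a block it was -1.01 ± 0.203 (SE, 95% confidence interval -1.67 to -0.35, limma adjusted p = 0.226). Being lower in all 3 pairs was shared by 49.3% of the assays with all 6 values at 48 h, over both cards together. The median log2 difference of all 534 assays tested was -0.51. It was -0.33 over the 342 assays of card A, which holds miR-375, and -0.83 over the 192 of card B. Centred on the card median, the difference of miR-375 was -0.51 (limma adjusted p = 0.820).

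Before normalization, the Ct of miR-375 was higher in all treated than in all untreated αTC1-6 at each time. At 24 h it was 14.999, 15.98 and 15.98 in treated cells, against 14.94, 14.90 and 14.85. At 48 h it was 15.75, 15.94 and 15.32, against 14.95, 14.35 and 14.95. Of all assays tested, 8.31% at 24 h and 11.2% at 48 h had a Ct that was higher in all treated than in all untreated samples. The log2 differences without normalization were -0.75 at 24 h (limma adjusted p = 0.737) and -0.93 at 48 h (limma adjusted p = 0.980).

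MiR-7a had fewer usable values at 24 h. Its ΔCt was 2.71 and 3.50 in the 2 treated samples with a value, within the range of 1.94 to 3.27 of the untreated ones for one of them and above it for the other. The log2 difference at 24 h was -0.56 (95% confidence interval -2.15 to 1.04, limma adjusted p = 0.959). At 48 h it was 3.46, 3.18 and 3.13 in treated and 2.63, 2.97 and 3.01 in untreated cells. These groups did not overlap, which held for 19.5% of the 534 assays tested at 48 h. The log2 difference at 48 h was -0.39 ± 0.282 (SE, 95% confidence interval -1.11 to 0.33, limma adjusted p = 0.751), and it was 0.11 with each card centred on its median, so its direction depended on the reference.

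MiR-7b and the 2 miR-7a* assays overlapped between treated and untreated cells at both times. The log2 difference of miR-7b was 0.32 at 24 h (95% confidence interval -1.06 to 1.70) and -0.22 at 48 h (95% confidence interval -1.52 to 1.08). For mmu-miR-7a* the ΔCt at 48 h was 2.44, 4.27 and 3.50 in treated and 2.00, 3.64 and 2.70 in untreated cells, lower in level in all 3 pairs. Its log2 difference was 0.26 at 24 h (95% confidence interval -1.001 to 1.52) and -0.62 at 48 h (95% confidence interval -2.36 to 1.11). For rno-miR-7a* the differences were 0.23 (95% confidence interval -1.03 to 1.49) and -0.51 (95% confidence interval -1.60 to 0.57). On card B the median log2 difference at 48 h was -0.83 over all 192 assays tested. Both miR-7a* assays turned positive when centred on the card median, at 0.58 and 0.69.

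In the limma test 0 of the 5 assays passed the threshold in the cytokine comparison at 24 h, where 0.225% of all assays did, and 0 at 48 h, where 0.562% did. None of the 5 had an unadjusted p under 0.05 in either, against 4.72% of all assays at 24 h and 10.9% at 48 h. At 48 h these were 30 of 342 assays on card A and 28 of 192 on card B. With the replicate number as a block, which the pairing of these samples allows, 2 of the 5 had an unadjusted p under 0.05 at 48 h. The 2 were miR-375 (unadjusted p = 0.0170, limma adjusted p = 0.226) and mmu-miR-7a* at -0.62 (95% confidence interval -1.23 to -0.02, unadjusted p = 0.0466, limma adjusted p = 0.149). Neither passed after adjustment, and 0% of all assays did in the block fit. The share of all assays with an unadjusted p under 0.05 in that fit was not counted, so the 2 of 5 cannot be set against it. The difference between the cytokine effects of 48 h and 24 h was also tested directly. It was -0.45 for miR-375 (95% confidence interval -2.48 to 1.58), 0.17 for miR-7a, -0.55 for miR-7b, -0.89 for mmu-miR-7a* and -0.74 for rno-miR-7a*. Here 0 of the 5 passed (limma adjusted p from 0.550 to 0.992, 0 with an unadjusted p under 0.05), against 0.21% of all assays after adjustment and 4.61% before it. The latter were 4 of 286 assays on card A and 18 of 191 on card B.

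**Figure D4:**
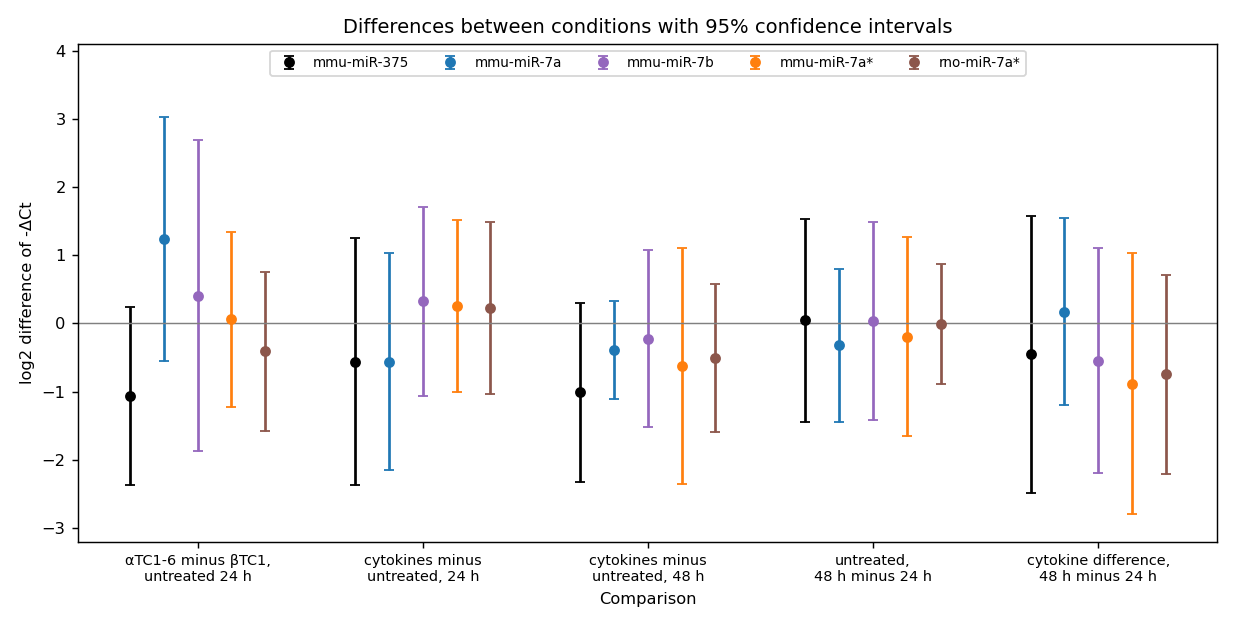
Log2 difference of the negative ΔCt (points) with 95% confidence intervals from limma (bars) for the 5 assays in the 5 comparisons. All 25 intervals, from the fit without the replicate block, include 0, and the lowest estimate at steady state is that of miR-375, at -1.06. With the block, the intervals of miR-375 (-1.67 to -0.35) and mmu-miR-7a* (-1.23 to -0.02) at 48 h of cytokines exclude 0, and the others include it.

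In untreated αTC1-6 the samples of 48 h were also set against those of 24 h, and none of the assays passed. The log2 difference of 48 h minus 24 h was 0.04 for miR-375 (95% confidence interval -1.45 to 1.54), -0.32 for miR-7a (-1.44 to 0.80), 0.04 for miR-7b (-1.42 to 1.49), -0.19 for mmu-miR-7a* (-1.65 to 1.26) and -0.01 for rno-miR-7a* (-0.88 to 0.87). In this comparison 0 of the 5 passed (limma adjusted p from 0.909 to 0.999, 0 with an unadjusted p under 0.05), against 5.52% of all assays after adjustment and 8.59% before it. After adjustment 27 of 296 assays passed on card A and 0 of 193 on card B. Over the 5 conditions, miR-375 ordered from βTC1 (ΔCt -4.24 ± 0.173) through untreated αTC1-6 of 48 h (-3.22 ± 0.728) and 24 h (-3.17 ± 0.756) to treated αTC1-6 of 24 h (-2.61 ± 1.09) and 48 h (-2.21 ± 0.492; SD, n = 3 each). On this ΔCt scale the gap of 1.02 cycles after βTC1 was the only one between neighbours without overlap. The share of all assays that separated βTC1 from untreated αTC1-6 of 48 h was not counted. As Ct minus the card median these groups overlapped, with replicate 2 of βTC1 at -10.08 and replicate 1 of untreated αTC1-6 of 48 h at -10.60. For each of the miR-7 assays all 4 pairs of neighbouring conditions overlapped.

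The miRNAs whose profile over the 15 samples was most like that of miR-375, by the root mean square difference of mean-centred ΔCt, were miR-30c at 0.363 cycles, miR-138 at 0.383, miR-324-5p at 0.426, miR-132 at 0.433 and miR-30b at 0.436, of 149 compared with a median of 0.935. The samples share the reference miR-26a, which cancels in these differences. Over the 12 αTC1-6 samples alone only miR-132 was still among the nearest 5. For rno-miR-7a* the nearest were miR-101b at 0.175 cycles and miR-93* at 0.204, followed by miR-872*, rno-miR-28* and miR-99b*, with a median of 0.844 over all miRNAs compared. For mmu-miR-7a* they were miR-28* at 0.273, miR-872*, miR-30a*, miR-93* and miR-877*. MiR-7a and miR-7b, with a blank well each, were not ranked in this way.

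Other miRNAs known from islet or neuroendocrine cells were counted over a list of 20 names, which took in 32 assays. At steady state 29 were tested, of which 1 was higher and 3 were lower in αTC1-6, 13.8% against the 29.2% of all assays. MiR-127, from an imprinted cluster, was higher by 9.26 log2 units ± 0.672 (SE, limma adjusted p = 0.00013). MiR-183 and miR-96, which are made from 1 cluster with miR-182, were lower at -3.52 (limma adjusted p = 0.0135) and -2.37 (limma adjusted p = 0.0392). MiR-200b had a Ct in βTC1 only in the normalized table, so its size rests on the value of 40 given to wells without a Ct. In the non-normalized table, where all 6 samples had a Ct, its difference was -1.84 (limma adjusted p = 0.570), and that of miR-96 was -2.37 (limma adjusted p = 0.0739). There 18.7% of 539 assays and 3 of 32 of the list passed. The median of the list was -1.08, against -0.56 over all assays. In the cytokine comparisons 0 of the 28 tested at 24 h and 0 of the 32 at 48 h passed the limma test, and 0 of 30 for the difference of the cytokine effects. Over all assays the shares were 0.225%, 0.562% and 0.21%, in that order. Between untreated αTC1-6 of 48 h and 24 h, 3 of 30 were higher, miR-200a, miR-211 and miR-429. Each had no Ct at 24 h in the normalized table, so the size of the difference rests on the value of 40, and the plant control ath-miR159a showed the same pattern there. The calls depended on the table. In the non-normalized table the differences were -3.59 for miR-200a, 6.998 for miR-211 and -1.63 for miR-429 (limma adjusted p = 0.973 for each), and 0 of 31 of the list passed. Over all assays 26 were higher and 1 lower at 48 h in the normalized table, against 0 and 2 of 520 (0.385%) in the non-normalized one.

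The Ct values of these assays were not spread evenly within a cycle. Of the 73 Ct values, 40 (54.8%) had a decimal part of 0.9 or more, where an even spread would give 10%, and for miR-375 these were 8 of 15, such as 14.94, 14.95 and 15.98. The same held for 43.5% of the 4289 wells of card A and 28.3% of the 4841 of card B. For miR-26a, the reference, it was 6 of 15. The part of this in the differences between conditions was not tested.

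**Figure D5:**
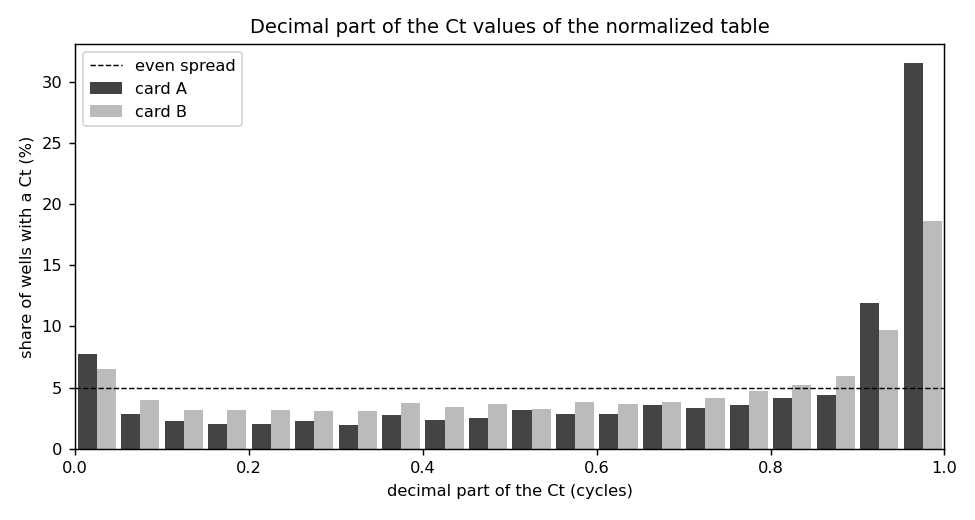
Decimal part of the Ct (horizontal axis, cycles) of all wells with a Ct in the normalized table, as the share of wells in each of 20 bins (vertical axis, %), for card A and card B. Bars rise above the even spread of 5% (dashed line) next to the whole numbers, and 43.5% of card A wells have a decimal part of 0.9 or more.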

How the data were processed

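The authors deposited Ct values, not normalized, and in a second table ΔCt values, which are on a log2 scale and relative to miR-26a, whose own ΔCt was 0 in every sample. The methods name multiple reference genes, and how these relate to the deposited values is not given in the sources used here. Relative quantities and the authors' fold changes were not used. Ct values were recovered as ΔCt plus the Ct of miR-26a, undetermined wells were set to 40, blank wells were left out, and duplicate wells were averaged over those with a Ct. For the 73 wells described here, both tables gave the same Ct within 0.01 cycle. The normalized table gives 21.4% of the card A miRNA wells of 24 h that have a Ct in the other table as undetermined, and the rule behind this is not given in the sources used here. Groups followed cell line, treatment and time. Comparisons were fitted on -ΔCt with limma (version 3.58.1, R version 4.3.3) over all assays of the samples compared with a Ct in no fewer samples than without, two-sided, with Benjamini-Hochberg adjustment within each card at 0.05, after a test on simulated data. Adjusted p-values are those of limma throughout. Exact permutation tests ran in scipy 1.17.1 under Python 3.11.15. The members, lists and settings were chosen with earlier results of these data known. Named miRNAs are the assays described, control assays, neighbours by mean Ct, the 5 nearest profiles and up to 4 of the islet list per comparison, and miR-496 and miR-320 were named after their values were seen. Same-numbered samples deviated together in the cytokine comparisons (Pearson's r across assays, on ΔCt, from 0.256 to 0.462 at 24 h and from 0.234 to 0.313 at 48 h), so replicate numbers were taken to pair them there. This comes from the data and not from the labels. Between lines r was at most 0.0234 on ΔCt and at most 0.0295 with Ct minus the card median. Between untreated αTC1-6 of 48 h and 24 h it ran from -0.0637 to 0.369 on ΔCt. The number of samples, 3 per condition, limits the precision.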

Additional observations from a re-analysis of the deposited data

How the results depend on the processing

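None of the 25 log2 differences passed the threshold under any of the 324 alternatives or the 180 fits without 1 replicate, and 298 of the 324 kept their direction. With the replicate block no call changed, and miR-375 at 48 h of cytokines stayed at -1.01 (unadjusted p = 0.0170, limma adjusted p = 0.226, 95% confidence interval -1.67 to -0.35). At steady state, miR-7a reached 1.82 (limma adjusted p = 0.0597) with each card centred on its median. Centring on the card median turned rno-miR-7a* at steady state (0.046), miR-7b at 24 h of cytokines (-0.044), miR-7a (0.11), miR-7b (0.27), mmu-miR-7a* (0.58) and rno-miR-7a* (0.69) at 48 h of cytokines, miR-375 (-0.081) and miR-7b (-0.32) between 48 and 24 h, and miR-375 (0.19), miR-7b (0.32), mmu-miR-7a* (0.39) and rno-miR-7a* (0.53) in the difference of cytokine effects. U6 and small nucleolar RNAs as reference turned miR-7b (0.12), mmu-miR-7a* (0.078) and rno-miR-7a* (0.19) at 48 h of cytokines, miR-7a (0.078) and rno-miR-7a* (0.019) between 48 and 24 h, and rno-miR-7a* (0.049) in the difference of cytokine effects. Ct without normalization turned miR-7b at 24 h of cytokines (-0.32), miR-7b (-0.31) and rno-miR-7a* (0.10) between 48 and 24 h, and miR-7b in the difference of cytokine effects (0.19). The non-normalized table, which fills the blank wells, turned miR-7b at 24 h of cytokines (-0.10) and between 48 and 24 h (-0.38), and miR-7a in the difference of cytokine effects (-0.22). With untreated αTC1-6 of 48 h in place of 24 h, mmu-miR-7a* against βTC1 was -0.13. Leaving out 1 replicate in turn gave ranges that cross 0 at steady state for miR-7b (-0.27 to 0.83) and mmu-miR-7a* (-0.26 to 0.34), at 24 h of cytokines for mmu-miR-7a* (-0.018 to 0.60) and rno-miR-7a* (-0.22 to 0.58), at 48 h for miR-7b (-0.51 to 0.15), between 48 and 24 h for miR-375 (-0.36 to 0.48), miR-7b (-0.34 to 0.23), mmu-miR-7a* (-0.58 to 0.23) and rno-miR-7a* (-0.16 to 0.22), and in the difference of cytokine effects for miR-375 (-0.88 to 0.18) and miR-7a (-0.23 to 0.57). Mean ranks are larger over both cards by construction, since more miRNAs are ranked. They pool Ct values of cards A and B, which hold different assays, so they do not order abundance across the cards. In the order untreated 24 h, treated 24 h, untreated 48 h and treated 48 h αTC1-6 and βTC1, they were 51.3, 52.0, 52.7, 56.0 and 95.7 for miR-7a. For miR-7b they were 69.0, 61.7, 74.0, 69.7 and 98.3. For mmu-miR-7a* they were 48.7, 38.0, 51.7, 60.0 and 60.7, and for rno-miR-7a* 58.7, 52.7, 57.0, 63.3 and 62.7. For miR-375 they were 5.33, 4.67, 9.33 and 4.33 without the untreated 48 h cells. In the non-normalized table the mean rank of miR-375 was 6.0 in untreated and 4.0 in treated αTC1-6 of 24 h and 4.0 in βTC1, that of miR-7a 41.3 and that of miR-7b 51.7 in untreated cells of 24 h, and in treated cells of 24 h that of miR-7b was 48.7 and that of mmu-miR-7a* 13.7. Among mouse assays alone miR-7b ranked 44.5 in untreated αTC1-6 of 24 h. Without wells under a Ct of 12, chosen after seeing the data, the mean rank of miR-375 was 1.0 in untreated αTC1-6 of 48 h, 2.33 in treated cells of 48 h and 1.0 in βTC1, that of miR-7a 33.3 in untreated cells of 48 h, and that of mmu-miR-7a* 14.7 and 13.3 in untreated and treated cells of 24 h. Among miRNAs with a Ct in all samples, also chosen later, miR-375 averaged 1.0 and 1.33 in untreated and treated cells of 48 h. Over αTC1-6 alone, 1 of the 5 miRNAs nearest to miR-375 and 3 of those nearest to mmu-miR-7a* were again among the nearest 5. With the non-normalized table, tried on the islet list after seeing the data, 0 of its miRNAs passed between 48 and 24 h in place of 3, and at steady state 101 of 539 assays passed in place of 140 of 480. The causes of these changes were not tested.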
